A study of Homo sapiens with 9 samples.

Results

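PEG10 is an imprinted gene, transcribed from the paternal copy, and its transcript carried 6 distinct positions in the deposited maps of N6-methyladenosine (m6A) in HepG2 cells. The positions were taken by location: all listed sites on the plus strand of chromosome 7 from 94285637 to 94299006 (build hg19), a window of 13370 nt that spans the gene. They are 6 of the 4429 distinct positions listed in the series, and they make 10 of its 4934 list entries, with 5 in the control list, 3 with the first SETD2 hairpin and 2 with the second. PEG10 was selected on its listings and scores in these same lists, so its values are a description and no test was made on them. The series has 9 samples of HepG2, an established human liver cancer line. All were transduced with lentivirus and selected with puromycin, so every group carries a stably expressed shRNA: a non-specific control (shCtrl), shSETD2#1 (hairpin 1 here) or shSETD2#2 (hairpin 2), with 3 labelled replicates each. SETD2 is the histone methyltransferase that places the H3K36me3 mark along transcribed genes, and the series compares m6A positions with and without its knockdown. The labels name 1 site list for the 3 replicates of each shRNA, so values have no replicate error, and the lists are compared as they stand.

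PEG10 derives from a retrotransposon of the Ty3/gypsy type and has kept gag-like and pol-like reading frames, which are joined by a programmed ribosomal frameshift. The gene is needed for placenta formation in mice, and it is known for raised expression in hepatocellular carcinoma. Its mRNA has a short first exon and a long last exon that holds most of the coding sequence and a long 3′ untranslated region. In the RefSeq gene order of assembly GRCh38.p14, its protein-coding neighbours on chromosome 7 are SGCE and PPP1R9A. m6A is written on mRNA by a complex of METTL3 and METTL14 and is read by proteins that act on splicing, translation and decay.

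The assay is called miCLIP in the series and m6A-seq in the sample titles, and the labels describe immunoprecipitation with an m6A antibody but no crosslinking. Sites are therefore m6A sites only as the lists name them. Each site is 1 nt with a score, read here as the number of reads over it, and a running number in its name, whose order gave back the number of those reads with a C-to-T change. Both are inferences, described with the processing. The lists held 3755, 482 and 697 sites for control, hairpin 1 and hairpin 2, with median scores of 14, 11 and 15 reads. The sequencing depth of the libraries was not used here, and no SETD2 transcript level was analysed, so the knockdown is taken from the labels. The intervals below (95%, Clopper-Pearson, exact) account for counting error alone, and no molecular identifiers are described that would make reads independent molecules. A position that is not listed has no value in the lists, which is not the same as 0 reads or 0 changed reads.

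The PEG10 sites lay far into the gene and close together. The first was 9032 nt and the last 12998 nt after the start of the window of 13370 nt. Of the 6 positions, 5 lay within 770 nt, from 94294669 to 94295439, and the remaining one, at 94298635, lay 3196 nt further on. The neighbouring distances within the group were 110, 400, 141 and 119 nt. Fragments may therefore cover more than 1 of these positions, and their reads are not independent of each other. No other site was listed within 500 kb of the window on either strand in any of the 3 lists. Exons, untranslated regions and sequence motifs were not assigned, as no hg19 annotation or genome was used here.

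**Figure D1:**
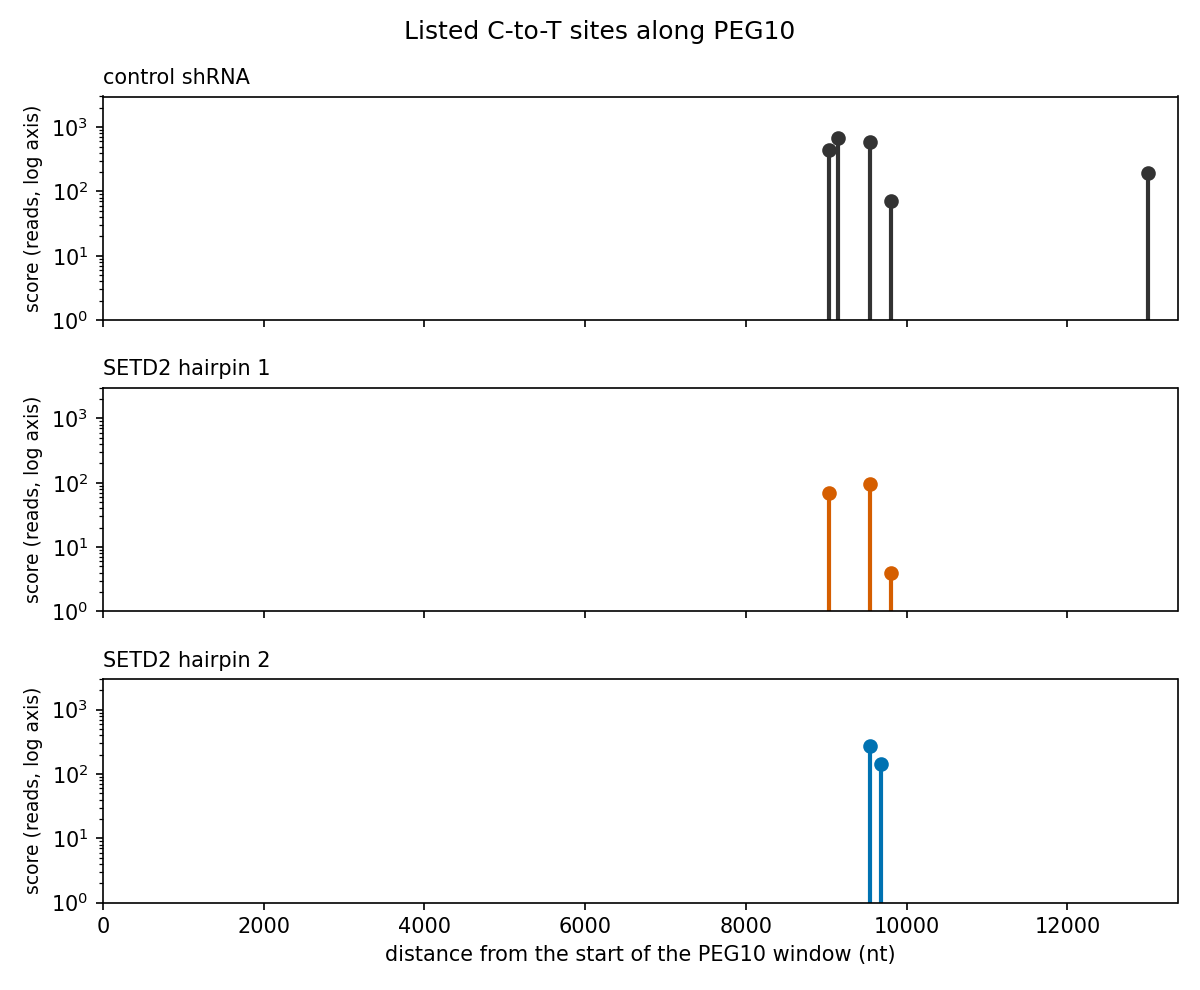
Score of each listed site (reads, log axis) against its distance from the start of the PEG10 window (nt), with 1 panel per shRNA; each line and point is 1 site. All 10 entries lie at 9032 nt or beyond, the control list alone has the site at 12998 nt, and hairpin 2 alone has the site at 9683 nt.

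A single PEG10 position was in all 3 lists. At 94295179 (chromosome 7, plus strand) the control list had 582 reads, hairpin 1 had 95 and hairpin 2 had 273. Coverage was thus lower in both knockdown lists, and higher with hairpin 2 than with hairpin 1. It was 6.13-fold lower than control with hairpin 1 (interval 4.92 to 7.69) and 2.13-fold lower with hairpin 2 (1.84 to 2.47). The C-to-T change was found in 40 of the 582 control reads, a share of 6.87% (4.96 to 9.24), and in 6 of 95 reads with hairpin 1, or 6.32% (2.35 to 13.2). With hairpin 2 it was found in 3 of 273 reads, or 1.1% (0.227 to 3.18). The share with hairpin 1 thus lay close to that of control, and the interval with hairpin 2 lay wholly below that of control. The background rates fitted to the lists were 1.57%, 1.43% and 1% in the same order. The intervals of control and hairpin 1 lay above their rates and that of hairpin 2 contained its own. At hairpin 2's fitted rate, 273 reads hold 2.74 changed reads, against the 3 found. Position 94295179 therefore kept its listing with hairpin 2 at a share that the fitted background of that list also gives.

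The strongest C-to-T share of PEG10 in control was at 94294669, 510 nt upstream of the common site. Here 33 of 438 control reads were changed, a share of 7.53% (5.24 to 10.4), where the fitted rate gives 6.88 reads. With hairpin 1 the score was 69 reads with 3 changed, or 4.35% (0.906 to 12.2). The coverage was 6.35-fold lower than in control (4.92 to 8.31), and the intervals of the shares overlapped. The control interval lay above the fitted rate of its list, and that of hairpin 1 contained its rate of 1.43%, which gives 0.986 changed reads. With hairpin 2 this position was not listed. At 94295439, the third position shared with hairpin 1, the control list had 70 reads with 3 changed, or 4.29% (0.893 to 12). With hairpin 1 it had 4 reads with 1 changed, a share of 25% (0.631 to 80.6), and coverage was 17.5-fold lower (6.54 to 66). Listing requires at least 1 changed read, so a site of 4 reads cannot show a share below 25%, and both intervals at this position contained the fitted rate of their list. This site too was not listed with hairpin 2.

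The PEG10 positions listed in control alone numbered 2, and both had C-to-T shares below the control background rate of 1.57%. The site at 94294779 was the best covered of the gene, with 671 reads, of which 9 were changed, or 1.34% (0.615 to 2.53). The fitted rate gives 10.5 changed reads at that depth. The site at 94298635, near the end of the gene, had 197 reads with 2 changed, or 1.02% (0.123 to 3.62), against 3.09 at the fitted rate. Both intervals contained the fitted rate. Depth alone thus put the control sites of PEG10 in another order than the share did: the site with the most reads had one of the lowest shares.

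A single position was listed with hairpin 2 alone, at 94295320, which is 141 nt downstream of the common site and 119 nt upstream of 94295439. It had 144 reads with 2 changed, a share of 1.39% (0.169 to 4.93), and the fitted rate gives 1.45. Among all sites of the hairpin 2 list, 65% were not in control, and with hairpin 1, where PEG10 had 0 such sites of 3, the share was 53.3%. Over both hairpin 2 sites of PEG10, 5 of 417 reads were changed, or 1.2% (0.39 to 2.78). Over the 3 sites with hairpin 1 it was 10 of 168, or 5.95% (2.89 to 10.7), and over the 5 control sites 87 of 1958, or 4.44% (3.57 to 5.45). The pooled interval with hairpin 2 thus lay below those of control and hairpin 1, which overlapped each other. Its gap to hairpin 1 was narrow, 2.78 against 2.89, and the hairpin 1 pool includes 1 changed read from the site of 4 reads. Without that site the hairpin 1 share was 5.49%, for which no interval is given. Reads at neighbouring positions are not independent, so the pooled intervals may be too narrow. These pooled shares do not rest on the same positions in the 3 lists.

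**Figure D2:**
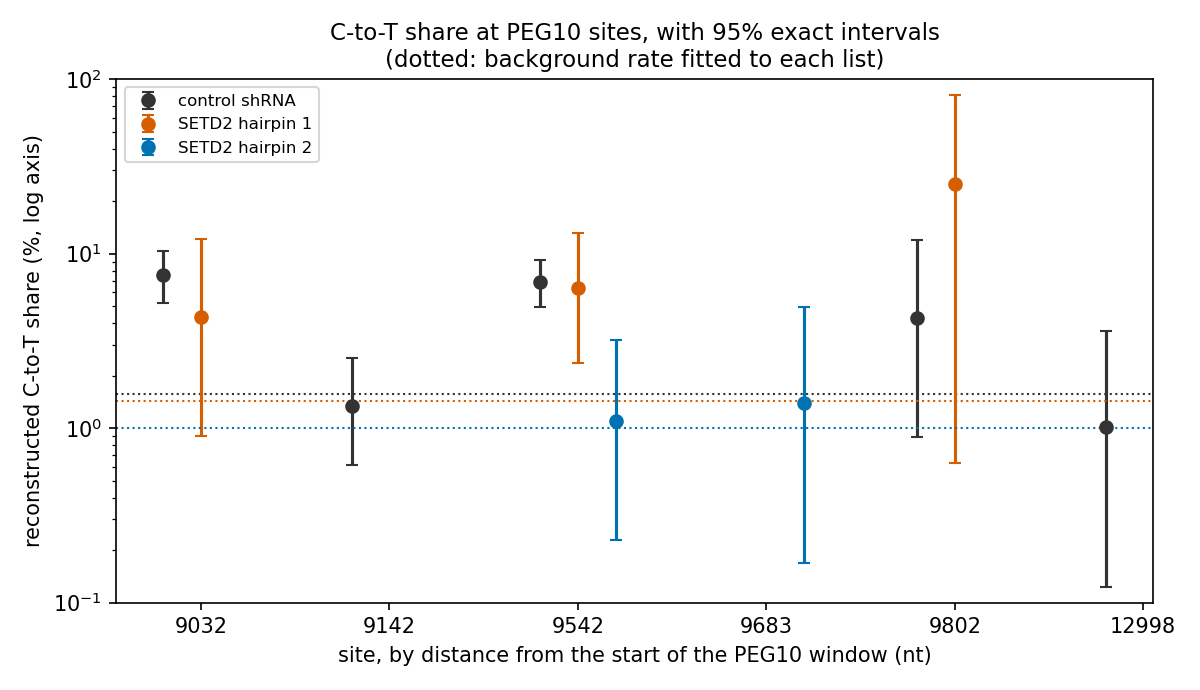
Reconstructed C-to-T share (%, log axis) at each PEG10 position, named by its distance from the start of the window in nt; points are the 3 lists, bars are 95% exact intervals and dotted lines are the rates fitted to each list. The control sites at 9032 and 9542 nt (7.53% and 6.87%) stand above the rate of 1.57%, while both hairpin 2 points (1.1% and 1.39%) lie beside theirs of 1%.

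Of the 5 control sites of PEG10, 3 were listed at the same base with hairpin 1, or 60% (interval 14.7 to 94.7), where 5.99% of all control sites were. With hairpin 2 it was 1 of 5, or 20% (0.505 to 71.6), where 6.5% of all control sites were found again. In both lists together it was 1 of 5, where the share of all control sites was 2.21%. PEG10 sites were deeply covered, with control scores of 70, 197, 438, 582 and 671 reads against a median of 14. Among the 581 other nuclear control sites with scores from 70 to 671, hairpin 1 listed 18.6% again and hairpin 2 listed 16.7%. Those shares lay within the intervals of PEG10, which are wide with 5 sites. The range is no close match in depth. By score, 197 reads held place 174 of the control list and 70 reads place 631. Most sites in the range were thus less covered than all PEG10 control sites except 94295439. The intervals treat these sites as independent, although most lie close together in 1 gene that was selected on its listings.

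Coverage at the shared PEG10 sites was lower in the knockdown lists at all 4 pairs, 3 with hairpin 1 and 1 with hairpin 2. Over all shared sites it was lower at 92.4% with hairpin 1 and 83.6% with hairpin 2. The median shared site had 7.01-fold lower coverage with hairpin 1 (225 sites, quartiles 3.36 to 13.1), and 4.93-fold lower with hairpin 2 (244 sites, 1.77 to 10.3). At 94294669 and 94295179 the folds with hairpin 1, 6.35 and 6.13, were within 0.14 and 0.19 of that median on the log2 scale. The fold of 17.5 at 94295439 was larger, and 32 of the 225 shared sites had a lower ratio still. With hairpin 2, the ratio at 94295179 was 1.21 above the median on the log2 scale, and 176 of the 244 shared sites had a lower ratio. In a comparison chosen after seeing the data, coverage was also set against the nuclear shared sites outside PEG10 with control scores from 70 to 671, whose median was 9.06-fold lower with hairpin 1 (108 sites) and 6.33-fold lower with hairpin 2 (97 sites). Against these, the log2 distance with hairpin 1 was 0.51 at 94294669, 0.56 at 94295179 and -0.95 at 94295439, and with hairpin 2 it was 1.57 at 94295179. The distance from all shared sites with hairpin 2 came to 0.37 with a minimum score of 20 in each list and to 1.61 against the 12 shared mitochondrial sites. Both hairpins are set against the same control list. Set directly against each other at this position, hairpin 2 had 2.87-fold more reads than hairpin 1 (2.27 to 3.67), where the median over the 83 sites of all 3 lists was 1.43-fold (quartiles 1.08 to 2.37) and 13 sites had a higher ratio. The shared mitochondrial sites had a median coverage 7.09-fold lower with hairpin 1 (13 sites) and 6.5-fold lower with hairpin 2 (12 sites). The reads over a site reflect the sequencing depth of the libraries, the level of the transcript and its recovery by the antibody. For PEG10 these cannot be told apart here.

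**Figure D3:**
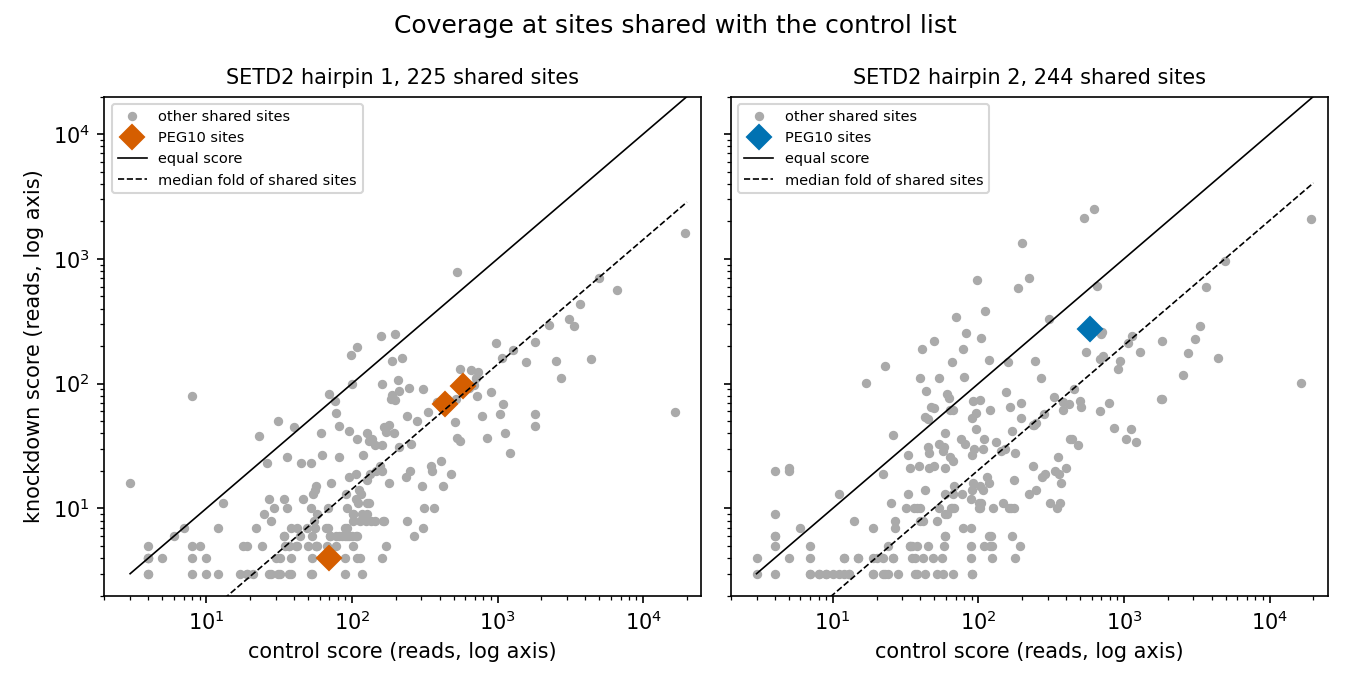
Knockdown score against control score (reads, both axes log) at the sites shared with control, for hairpin 1 (225 sites) and hairpin 2 (244 sites); diamonds are PEG10 sites, the solid line is an equal score and the dashed line the median fold. With hairpin 1, 2 PEG10 sites lie near the dashed line and 1 below it; with hairpin 2 the single PEG10 site lies between the lines.

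The control sites of PEG10 had 2 high and 2 low C-to-T shares, with 94295439 between them. Nuclear control sites outside PEG10 with 70 to 671 reads and a single possible number of changed reads numbered 564. Their median share was 1.91% (quartiles 1.16 to 3.64). They were not matched more closely by depth. Most of them had fewer than 197 reads, where among the PEG10 control sites only 94295439 did. Shares were lower than that of 94294669 at 90.6% of them and lower than that of 94295179 at 89.9%. For 94295439 it was 80.5%, for 94294779 33.5% and for 94298635 15.2%. A share under the fitted rate was seen at 2 of the 5 PEG10 control sites. It was seen at 7.72% of all control sites with a resolved read number and at 42.7% of the 564 with 70 to 671 reads. With hairpin 1, 94295179 had a higher share than 65 of 67 nuclear sites in the same range of depth, whose median was 1.37%. The remaining hairpin 1 sites, 94294669 with 69 reads and 94295439 with 4, fell below that range and were not ranked. With hairpin 2, 94295179 had a higher share than 50 of 109 (median 1.15%), and 94295320 a higher share than 72 of them.

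**Figure D4:**
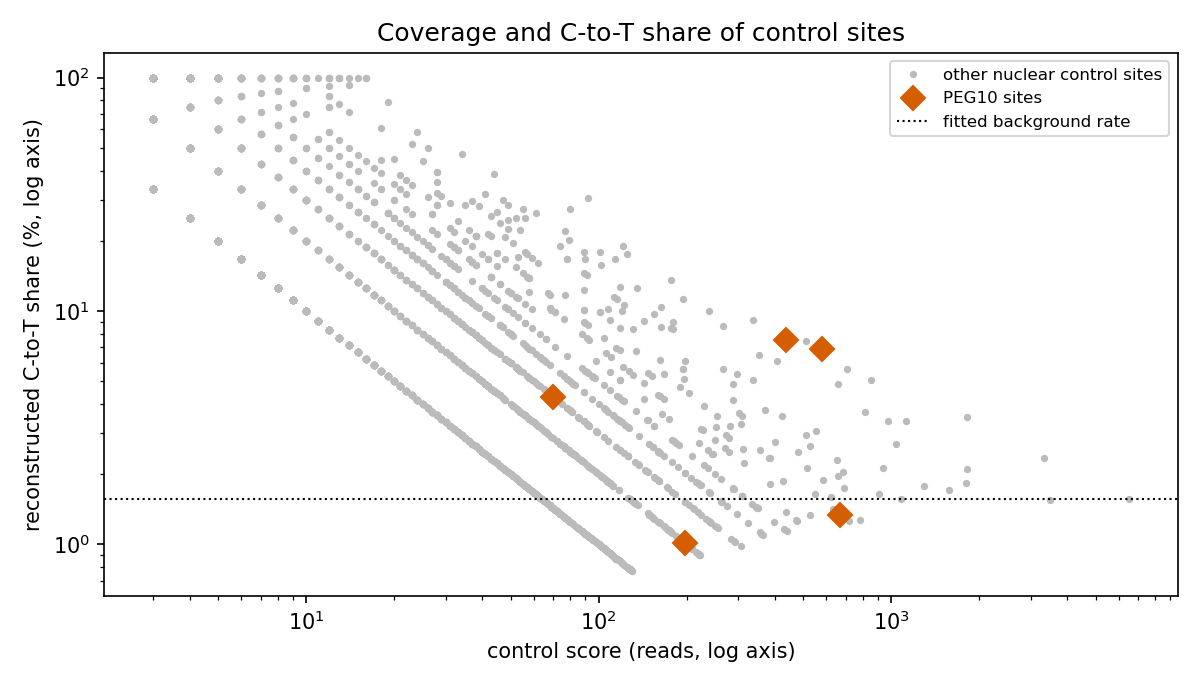
C-to-T share (%, log axis) against score (reads, log axis) of nuclear control sites with a resolved read number; diamonds are the 5 PEG10 sites and the dotted line is the fitted rate of 1.57%. The diagonal bands are sites with the same small number of changed reads, and the PEG10 sites at 438 and 582 reads (7.53% and 6.87%) lie in the upper part of the cloud at their depth.

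The change in share at the PEG10 sites was set beside that at all positions with at least 50 reads in each compared list, PEG10 included. This minimum was adopted once the data had been seen. With hairpin 1, 94294669 went from 7.53% to 4.35%, a difference of -3.19 percentage points, and 1 of the 44 such sites had a more negative one. At 94295179 the difference was -0.557 points, more negative at 13 of the 44, 94294669 among them, with a median difference of 0.0549 over the 44. With hairpin 2, 94295179 went from 6.87% to 1.1%, a difference of -5.77 points, more negative at 1 of the 57 such sites, with a median of -0.527. These sites were not matched to PEG10 by their control share, whose median was 2% over the 44 and 2.13% over the 57. A share cannot fall by more than its control value. Most of these sites therefore could not reach the differences at 94294669 with hairpin 1 or 94295179 with hairpin 2. Their ranks do not show how unusual those differences were. The fitted background rate was also lower with hairpin 2, at 1% against 1.57% in control. Its part in the difference at 94295179 was not tested.

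By the running numbers, PEG10 held places far apart. They were taken to order each list by how improbable its changed reads were at the fitted rate, the most improbable first. The changed reads were worked out from this same order, so the places are not a separate observation. In the control list of 3755 sites, 94295179 was at place 119 and 94294669 at place 142, while 94295439 was at 2284, 94294779 at 3586 and 94298635 at 3694. In the hairpin 1 list of 482 sites, 94295179 was at place 75, 94295439 at 183 and 94294669 at 227. In the hairpin 2 list of 697 sites, 94295320 was at 597 and 94295179 at 624. Each list has its own length, depth and fitted rate, so places are read within a list and show no change between lists.

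PEG10 made up a similar part of the summed score in each list. Its sites held 1958 of 256360 in control, or 0.764%, 168 of 23420 with hairpin 1, or 0.717%, and 417 of 51597 with hairpin 2, or 0.808%. Without the mitochondrial sites these shares were 0.952%, 0.992% and 0.969%. The sums rest on different positions. Those at 94294779 (671 reads) and 94298635 (197 reads) counted in control alone, and 94295320 (144 reads) with hairpin 2 alone. By number, PEG10 had 0.133% of the control sites (interval 0.0432 to 0.31). Its part was 0.622% of the hairpin 1 list (0.129 to 1.81) and 0.287% of the hairpin 2 list (0.0348 to 1.03), and the 3 intervals overlapped. On the plus strand of chromosome 7 it held 5 of 112 sites and 24.8% of the score in control, 3 of 16 sites and 14.3% with hairpin 1, and 2 of 22 sites and 47.2% with hairpin 2.

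Few other stretches of the genome held as many sites. Nuclear sites were grouped into single-strand windows of the same 13370 nt, each starting at a listed site and taken by summed score without overlap. Sites shortly before a taken window could fall into none, so the counts of windows can be too low. Of these 3585 windows outside PEG10 and chromosome Y, 10 had 5 or more control sites, 3 had 3 or more hairpin 1 sites and 25 had 2 or more hairpin 2 sites. In 2 windows all 3 numbers were reached. By summed score, PEG10 took place 8 in control, place 17 with hairpin 1 and place 17 with hairpin 2. Of the 10 windows with 5 or more control sites, 4 had no site with hairpin 1 and 4 none with hairpin 2. The number of sites over the 3 lists served as the measure of likeness, with 3 points for each window. The nearest window to PEG10, on the minus strand of chromosome 17 from 79910737 to 79919015, had 5, 2 and 2 sites and summed scores of 2470, 61 and 92. The next, on the plus strand of chromosome 2 from 20647453 to 20647968, had 5, 2 and 3 sites and scores of 1803, 100 and 428. The third, on the minus strand of chromosome 16 from 89346717 to 89351669, had 5, 2 and 1 sites and scores of 218, 43 and 36. These 3 windows each had 2 control sites listed again with hairpin 1, where PEG10 had 3, and 2, 2 and 1 with hairpin 2, where PEG10 had 1. Of the 10 windows with 5 or more control sites, 1 had at least as many listed again as PEG10 with hairpin 1 and 6 had with hairpin 2.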

How the data were processed

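The data are 3 lists of C-to-T sites from HepG2 cells, 1 per shRNA, each assigned by the labels to 3 replicates. Per the submitters' processing notes, FastQC 0.11.5, cutadapt 1.13, Bowtie 1.1.2 and build hg19 were used. The deposited site names carry rbsSeeker; its version and filters, and the way replicates were merged, are not given in the sources used. The score deposited by the authors is a whole number of at least 3, and its meaning is not stated. It was taken to count the reads at a site, since the running numbers in the names order every site of each list by the binomial probability of its changed reads or more, at 1 rate per list. That rate was searched from 0.5% to 2.5% in steps of 1e-06. At the fitted rate the 3755, 482 and 697 sites could all be ordered with whole numbers of changed reads, and a single number is possible at 98.6%, 97.7% and 97% of sites, including all of PEG10. The calculation was tested on simulated lists, which does not test what the score means. Sites were shared when chromosome, position and strand were equal.

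PEG10, the rule for windows and the lists of values were chosen with earlier results of these data known. All PEG10 sites are named, with the 3 windows nearest in number of sites. Planned lists of imprinted and gag-derived genes need an hg19 annotation and were not analysed here. Alternatives were tried for the window, the list totals, the lowest score kept, and how sites were merged and matched. Python 3.11.15 with numpy 2.4.6, scipy 1.17.1, pandas 2.3.3 and matplotlib 3.10.9 was used.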

Additional observations from a re-analysis of the deposited data

How the results depend on the processing

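Of 80 values recomputed for 18 results under 9 alternatives, 69 stayed within the counting interval of the reported value or within 1.5 times a count, and 11 moved. Some could not move, so the 69 are no measure of stability. PEG10 control sites all had 70 reads or more, so no minimum tried could change their number. Intervals for sites found again were so wide that 60% and 40% with hairpin 1 counted as the same. With a minimum score of 20, PEG10 held 0.313% of control sites and 0.818% of the control score. The log2 distance of its coverage from the median of shared sites became -0.18 with hairpin 1, from 0.14, and 0.37 with hairpin 2, from 1.21. With a minimum score of 10 the latter was 0.97, and against mitochondrial sites 1.61. Against nuclear shared sites with control scores from 70 to 671, an alternative chosen after seeing the data, the distances were 0.51 with hairpin 1 and 1.57 with hairpin 2. Without chromosome M in the totals, PEG10 held 0.952%, 0.992% and 0.969% of the score in control, hairpin 1 and hairpin 2. A higher minimum leaves fewer sites in each list, and a smaller total raises a share by construction. The other moves were in log2 distances. The median log2 ratio of PEG10 itself was -2.67 with hairpin 1, or -2.64 at minimums of 10 and 20. With hairpin 2 it was -1.09 at every setting. The distances thus moved mainly with the median they were set against. Why that median differed between settings was not tested. The 4-read site of hairpin 1 dropped out at a minimum of 10, leaving 2 sites. Matching within 50 nt and a window extended by 1000 nt added no PEG10 site. Neither could, as PEG10 positions are at least 110 nt apart and no other site lies within 500 kb of the window. No paired analysis was possible because the 3 replicates of each shRNA share 1 list; for the same reason no replicate could be left out. A position with few reads, such as 94295439, limits what its share can show.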
